A study of Mus musculus with 11 samples.

Results

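The platelet-derived growth factor (PDGF) receptor and ligand genes of mouse were described in sorted bone marrow cells, all with the cell type label BMMSCs. The adult libraries were high in macrophage markers and low in most stromal markers, as given below. The 7 genes were chosen by name: the receptor genes Pdgfra and Pdgfrb, the receptor-like gene Pdgfrl and the ligand genes Pdgfa, Pdgfb, Pdgfc and Pdgfd. They were 7 of the 16576 gene identifiers in 3 deposited tables of polyA RNA sequencing, and each was present in every table. The libraries fell into 4 groups. Adult wild-type cells were sorted as PDGFRa+CD51+ (3 libraries). PDGFRa+Sca1- cells were wild type and labelled postnatal (2 libraries). Igf1r knockout cells were PDGFRa+Sca1+ and Cre-positive, with no age in their sample labels (3 libraries). The PDGFRa+Sca1+ cells that served as the comparison in all 3 tables were wild type, Cre-negative and labelled postnatal (3 libraries), and are called perinatal, labelled Sca1-positive or control below according to the table. The sources used here do not give the Cre driver, strain, sex, exact age or any pooling of animals, and any effect of Cre cannot be told apart from that of the deletion. No label ties the libraries of a group to separate animals. The p-values therefore reflect only variation among these libraries, which may be technical.

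PDGF ligands are secreted dimers that bind receptor tyrosine kinases on mesenchymal cells. The kinase subunits PDGFR-alpha and PDGFR-beta pair on ligand binding and signal through phosphatidylinositol 3-kinase, phospholipase C-gamma and the Ras pathway. PDGF-A and PDGF-B are cut inside the cell by furin-type proteases, whereas PDGF-C and PDGF-D are secreted as latent forms that plasminogen activators can open. PDGFR-alpha marks mesenchymal progenitors of the marrow and was the sort marker shared by all groups, so Pdgfra was the gene of the gate. PDGFR-beta is typical of pericytes and smooth muscle, and PDGF-B is typically made by endothelial cells, megakaryocytes and macrophages.

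The bases before annotated start sites of the gate receptor and of 3 ligands are shown because their sequence differed in kind between genes. They are the 250 bases upstream of a RefSeq start on GRCm38.p6, 5′ to 3′ on the gene's own strand, for Pdgfra (chr5:75152001-75152250, plus strand), Pdgfd (chr9:6168236-6168485, plus strand), Pdgfc (chr3:81036166-81036415, plus strand) and the distal of 2 Pdgfa starts (chr5:138994945-138995194, minus strand). Capitals mark a TATA box (TATAAA) or a GC box, which reads GGGCGG or, on the other strand, CCGCCC. The CCAAT box was searched for too, and every box was searched for on both strands.
Pdgfra: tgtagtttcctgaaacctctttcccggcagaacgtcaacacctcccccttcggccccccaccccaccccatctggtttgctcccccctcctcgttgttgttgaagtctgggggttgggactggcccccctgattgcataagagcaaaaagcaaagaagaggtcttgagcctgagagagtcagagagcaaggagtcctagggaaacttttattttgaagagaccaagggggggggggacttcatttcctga
Pdgfd: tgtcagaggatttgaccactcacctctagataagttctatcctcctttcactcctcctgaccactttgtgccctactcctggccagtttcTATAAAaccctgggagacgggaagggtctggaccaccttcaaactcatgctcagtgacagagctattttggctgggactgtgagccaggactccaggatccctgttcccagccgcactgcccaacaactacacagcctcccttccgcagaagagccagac
Pdgfc: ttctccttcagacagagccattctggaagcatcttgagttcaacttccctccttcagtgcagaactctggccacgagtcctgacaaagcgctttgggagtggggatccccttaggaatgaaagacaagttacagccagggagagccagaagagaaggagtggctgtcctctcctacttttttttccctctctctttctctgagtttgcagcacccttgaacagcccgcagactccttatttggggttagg
Pdgfa: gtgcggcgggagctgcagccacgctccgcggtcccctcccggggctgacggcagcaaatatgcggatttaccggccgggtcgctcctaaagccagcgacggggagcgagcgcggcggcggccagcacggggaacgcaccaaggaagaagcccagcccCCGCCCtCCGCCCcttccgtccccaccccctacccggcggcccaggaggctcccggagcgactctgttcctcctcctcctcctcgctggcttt
The Pdgfa window held 2 GC boxes and 28 CpG dinucleotides, more CpG than 92.4% of the 32851 windows of this length in the table, whose median was 6. The window of the other Pdgfa start held 1 GC box and 19 CpG dinucleotides, more CpG than 80.3% of all windows. The Pdgfra window held 4 CpG dinucleotides, and the Pdgfc and Pdgfd windows held 3 each. A TATA box stood in the Pdgfd window, as in 12.4% of all windows, and none of the 3 boxes stood in the Pdgfra or Pdgfc window. GC boxes stood in 32.7% and CCAAT boxes in 33.9% of all windows. These are letter matches only, and 4 of the 7 genes had a window in the table.

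Total counts ran from 13412316 to 23782217 per library, so that 3 counts, taken as the floor, equalled 0.126 to 0.224 CPM, a gene's count scaled to a common library total. The floor covers counting error only. Levels below are unscaled CPM, and fold changes and p-values are from edgeR's quasi-likelihood test with TMM scaling and Benjamini-Hochberg adjustment over all genes of a table, with a gene called at an adjusted p under 0.05. Libraries 2 and 3 of the Sca1-positive wild-type group were the same in all 3 tables, with 97.9% to 100% of shared genes at equal counts and all 7 PDGF genes equal. The comparisons therefore share these libraries. Library 1 of that group differed between the age and knockout tables, with 1.72% of genes at equal counts, although the labels tie both columns to 1 sample. Ly6a, which encodes Sca1, ran against the gate labels: it had 666.2 and 658.6 CPM in the libraries labelled Sca1-negative, against 13.8 and 10.03 CPM in those labelled Sca1-positive. In the knockout table Ly6a had 768.5, 681.8 and 930.3 CPM in the knockout libraries, against 425.3 CPM in control library 1 and 13.8 and 10.04 CPM in control libraries 2 and 3. Igf1r had 8.203, 4.22 and 3.24 CPM in the knockout libraries, against 29.5, 31.7 and 30.7 CPM in the controls, a log2 fold change of -2.55 (SE 0.34) with an edgeR adjusted p of 0.0816.

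Adult cells held far less receptor-alpha and receptor-like RNA and more ligand RNA than perinatal cells. Of the 7 PDGF genes, 5 were called, Pdgfra and Pdgfrl lower and Pdgfb, Pdgfc and Pdgfd higher in adult cells. This comparison called 77.1% of the 13757 genes tested, 37.4% as higher and 39.7% as lower, so 5 of 7 is close to the background. The libraries of the 2 groups did not overlap for the same 5 genes, against 81% of all genes. Age and gate differed together here, and their effects cannot be told apart.

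**Figure D1:**
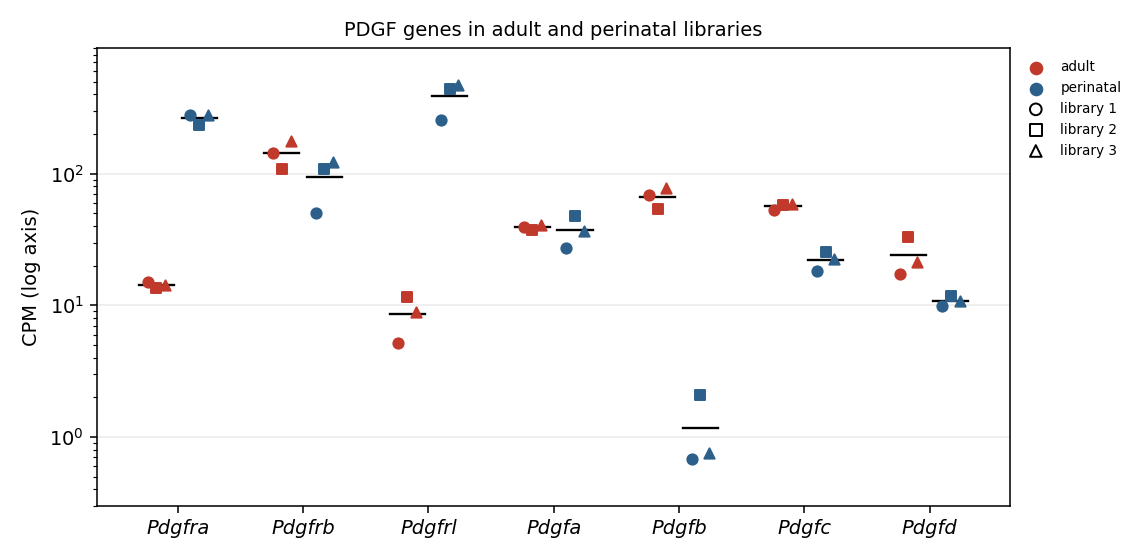
CPM of each PDGF gene in every adult and perinatal library, on a log axis, with the group mean as a black line. Pdgfb sits between 54.1 and 78.0 CPM in adult libraries and at or below 2.08 CPM in perinatal ones, while Pdgfrb and Pdgfa overlap between the groups.

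Pdgfra, the gene of the sort marker, had 15.2, 13.4 and 14.4 CPM in adult libraries, against 279.0, 235.2 and 276.8 CPM in perinatal libraries. Every adult library lay more than an order of magnitude below every perinatal one, in cells sorted on the protein this gene encodes. The edgeR log2 fold change was -4.47 (SE 0.15, adjusted p = 6.54e-07). Pdgfrl, which encodes a protein resembling the ligand-binding part of the receptors without a kinase, had 5.15, 11.6 and 8.95 CPM in adult libraries, against 255.6, 437.3 and 470.3 CPM in perinatal libraries. Its log2 fold change was -5.78 (SE 0.39, edgeR adjusted p = 9.13e-06). In bulk libraries, fewer cells of a type and less RNA per cell cannot be told apart.

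Pdgfrb, the second kinase receptor gene, lies on chromosome 18. It had 143.5, 109.4 and 175.7 CPM in adult libraries, against 49.8, 108.2 and 123.7 CPM in perinatal libraries, and the groups overlapped. The log2 fold change of 0.34 (SE 0.34) had an edgeR adjusted p of 0.393. The value moved with perinatal library 1: it was 0.050 without that library (edgeR adjusted p = 0.829, still not called) and 1.27 against that library alone (edgeR adjusted p = 0.0118).

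Other cell types' markers moved with these values. The macrophage list was higher in adult cells for 12 of 12 genes, with a summed level of 26326 to 29776 CPM in adult libraries and 25.8 to 33.3 CPM in perinatal libraries, and none of its genes was at 0 in an adult library. The stromal list, which includes Pdgfra and Pdgfrb, summed to 4837 to 7505 CPM in adult libraries and 75030 to 103750 CPM in perinatal libraries, with 7 of 10 genes lower. Within it, Lum, a fibroblast proteoglycan gene, had at most 0.373 CPM in adult libraries, against 1508 to 1935 CPM in perinatal libraries. Of the mural list, which marks pericytes and smooth muscle, 2 of 11 genes were higher, Acta2 and Tagln, and 7 were lower. Its sum was 1440 to 2340 CPM in adult libraries and 292 to 422 CPM in perinatal libraries, and its pericyte genes Rgs5, Kcnj8 and Higd1b had between 0 and 0.295 CPM in adult libraries. The erythroid list summed to 0.0746 to 0.289 CPM in adult libraries and 771 to 1663 CPM in perinatal libraries. The cartilage list summed to 53.8 to 89.8 CPM in adult libraries, against 776, 6071 and 7243 CPM in perinatal libraries 1, 2 and 3. Of the fibroblast progenitor list, 6 of 8 genes were present in the age table, and Ly6a was not among them. That list summed to 58.6 to 71.7 CPM in adult libraries, against 5316, 1301 and 1580 CPM in perinatal libraries 1, 2 and 3. Perinatal library 1 thus stood apart from the other perinatal libraries in the cartilage and fibroblast progenitor sums. Both groups carry the cell type label BMMSCs. The part of these other markers in the PDGF values was not tested.

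Among the ligands, Pdgfb differed most. It had 68.3, 54.1 and 78.0 CPM in adult libraries (1180, 919 and 1046 counts), against 0.674, 2.08 and 0.761 CPM in perinatal libraries (10, 36 and 11 counts). The lowest adult library was many times above the highest perinatal library. The log2 fold change was 5.52 (SE 0.40, edgeR adjusted p = 1.17e-05). Beside it, the endothelial list was lower in adult cells for 7 of 8 genes and summed to 20.9 to 25.8 CPM in adult libraries and 85.0 to 125 CPM in perinatal libraries. Of the 4 tested platelet and megakaryocyte genes, Pf4 and Treml1 were higher in adult cells, whereas Itga2b and Gp1bb were lower. That list summed to 55.4 to 62.7 CPM in adult libraries and 15.7 to 38.8 CPM in perinatal libraries. The macrophage list was higher in adult cells for 12 of 12 genes. It summed to 26326 to 29776 CPM in adult libraries and 25.8 to 33.3 CPM in perinatal libraries. The part of endothelial cells, megakaryocytes or macrophages in the Pdgfb value was not tested.

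Pdgfc and Pdgfd encode the ligands with a CUB domain. Pdgfc had 53.4, 57.7 and 58.9 CPM in adult libraries, against 18.1, 25.4 and 22.4 CPM in perinatal libraries. The groups lay apart, with a log2 fold change of 1.09 (SE 0.15, edgeR adjusted p = 3.29e-04). Pdgfd had 17.4, 33.3 and 21.2 CPM in adult libraries, against 9.85, 11.8 and 10.8 CPM in perinatal libraries. Adult library 2 was the highest. The log2 fold change was 0.87 (SE 0.24, edgeR adjusted p = 0.0117), and against perinatal library 1 alone it was 1.03 with an adjusted p of 0.0531.

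Pdgfa, the ligand that binds PDGFR-alpha alone as a homodimer, had 39.2, 37.2 and 40.9 CPM in adult libraries, against 27.5, 47.7 and 36.9 CPM in perinatal libraries. The adult values lay within the perinatal range. The log2 fold change of -0.20 (SE 0.20) had an edgeR adjusted p of 0.381, and its sign turned to 0.063 without TMM scaling, which moves every age fold change by -0.27. Without perinatal library 1 it was -0.37 with an edgeR adjusted p of 0.0349. Pdgfa shares 813 exonic bases with 6330403L08Rik on the opposite strand, which had 25.4 ± 5.51 CPM in adult libraries and 3.39 ± 0.838 CPM in perinatal libraries (n = 3 each, SD). The sources used here do not give the strand setting of the counting, so reads of the pair cannot be told apart there.

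Levels of different genes were set side by side per length, as the authors' deposited TPM. The 4 ligand genes together had 117.2, 116.8 and 132.9 TPM in adult libraries, against 45.1, 78.5 and 66.5 TPM in perinatal libraries. Pdgfa made up 29.2% to 32.1% of ligand TPM in adult libraries and 69.8% to 72.6% in perinatal libraries. Pdgfb made up 21.1% to 29.4% in adult libraries and 0.629% to 1.43% in perinatal libraries. Adult ligand RNA was thus spread over all 4 genes, and perinatal ligand RNA was mostly Pdgfa.

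**Figure D2:**
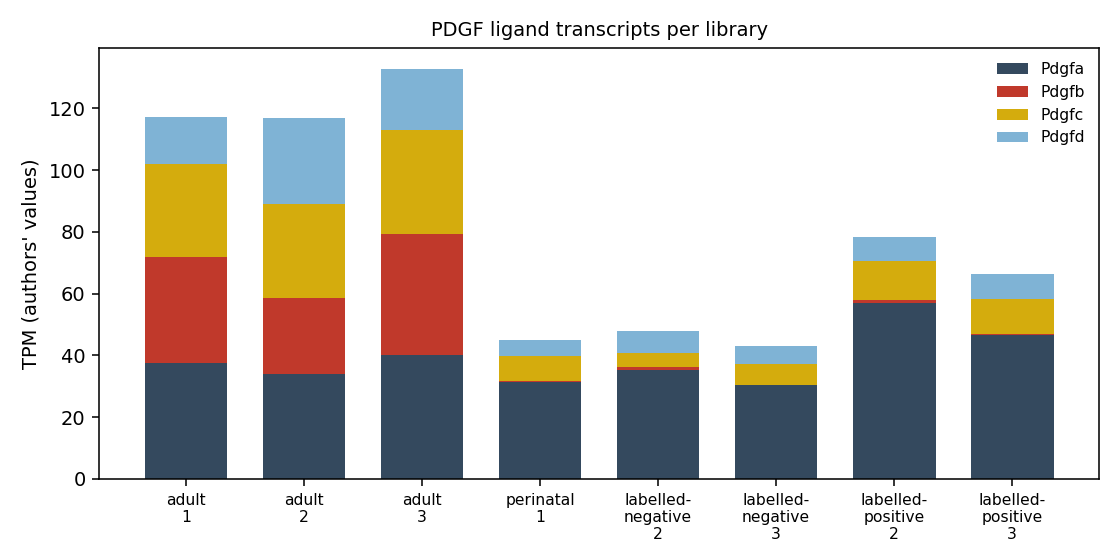
Stacked TPM of the 4 ligand genes in each library with deposited TPM, in the adult, labelled Sca1-negative and PDGFRa+Sca1+ wild-type libraries; labelled Sca1-positive libraries 2 and 3 are the same as perinatal 2 and 3. Adult bars reach 116.8 to 132.9 TPM with a visible Pdgfb segment, and the perinatal bars are mostly Pdgfa.

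The kinase receptors stood in opposite order in the 2 groups. The ratio of Pdgfrb to Pdgfra in the authors' TPM was 10.1, 8.70 and 13.0 in adult libraries, against 0.233, 0.570 and 0.550 in perinatal libraries. In TPM computed from the counts with GENCODE M21 exonic lengths it was 17.3, 14.9 and 22.3 in adult libraries, against 0.327, 0.842 and 0.818 in perinatal libraries. Pdgfra was the lowest of the 7 genes in all 3 adult libraries, and Pdgfrl the highest in all 3 perinatal libraries, both in the authors' TPM and in the computed TPM. Length affects such levels: Pdgfrb in adult library 1 was 38.2 in the authors' TPM and 84.9 in the computed TPM.

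The wider pathway was read from 7 lists of genes. Many of these genes are not particular to PDGF signalling, and the part of other cell types in their values was not tested. Of their 95 tested genes, adult cells had 43 higher and 38 lower, in a comparison that called 37.4% of all genes as higher and 39.7% as lower, so the counts below are to be read against a background of 77.1% called. Of 9 genes that process or bind the ligands, 5 were higher and 4 lower in adult cells, with a median log2 fold change of 0.76 against -0.06 for all genes. Plau, the urokinase gene, was higher by 5.45 (SE 0.26, edgeR adjusted p = 2.05e-06), as were Thbs1, a thrombospondin gene (2.64), and Furin (1.38). Plat, the tissue plasminogen activator gene, had a log2 fold change of -5.25, Pcsk5, a furin-type protease gene, one of -6.88, and Sparc, whose protein binds PDGF-B, one of -3.39. Of 8 receptor partners, 5 were higher and 1 lower, with a median of 1.48. Lrp1, an endocytic co-receptor gene, was at 2.58, Nrp1 at 1.04 and Itgav at 2.27, whereas Cav1, a caveolar coat gene, was at -3.12. Itgav encodes CD51, the second marker of the adult gate, and had 288 ± 17.1 CPM in adult libraries and 49.5 ± 2.18 CPM in perinatal libraries (n = 3 each, SD).

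Of 28 genes of signalling downstream of the receptors, 16 were higher, 5 lower and 7 not called, with a median of 0.61. The adaptor gene Grb2 was at 2.55 and the phosphatidylinositol 3-kinase subunit genes Pik3cb at 6.03 and Pik3r1 at 1.88, whereas Gab1 (-1.65), Nck2 (-0.85) and Yes1 (-1.13) were lower. Of 18 genes that attenuate the receptors, 10 were higher and 7 lower, with a median of 0.81. Ptprj, a receptor phosphatase gene, was at 5.64, and the ubiquitin ligase genes Cbl and Wwp1 at 3.48 and 3.85. The feedback inhibitor genes Socs3 (-3.88) and Spry4 (-4.17) and the phosphatase gene Acp1 (-1.70) were lower.

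Of 18 genes that PDGF is known to induce, 16 were lower and 2 higher in adult cells, with a median of -3.78. Fos had 9.95 ± 1.56 CPM in adult libraries and 3993 ± 643 CPM in perinatal libraries (n = 3 each, SD), with a fitted log2 difference of -8.91 (SE 0.27, edgeR adjusted p = 5.02e-07). Fosb was at -8.41 and Ier2 at -5.08. Srf, a transcription factor gene, was at 1.76, and Vgf was listed at 0 in every perinatal library. Immediate early genes such as these answer many stimuli besides PDGF. Of 6 related receptor genes, 2 were higher and 2 lower: Csf1r, also on the macrophage list, had 1598 ± 161 CPM in adult libraries and 2.66 ± 1.53 CPM in perinatal libraries (n = 3 each, SD), Kdr was at 1.07, Flt3 at -5.99 and Flt1 at -3.79. Of 8 tested related ligand genes, Vegfa (3.12), Vegfb (2.67) and Csf1 (2.16) were higher and Vegfc (-3.74), Pgf (-3.61) and Vegfd (-3.33) lower.

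In the Sca1 table, libraries labelled Sca1-negative had more Pdgfra and less Pdgfrb, Pdgfrl, Pdgfa and Pdgfc RNA than those labelled Sca1-positive, with no overlap between the libraries for these 5 genes, but none was called. Non-overlap held for 49.8% of all genes in this comparison of 2 libraries with 2. With edgeR 0 of the 7 genes were called, where 4.41% of 13529 genes were, and 4 of 7 had an unadjusted p under 0.05, where 18.9% of all genes did. DESeq2 called 3 of the 7. As the authors' deposited table gives them, the adjusted p-values were 0.0181 for Pdgfrb, 0.00453 for Pdgfrl and 0.0396 for Pdgfc. Without labelled-negative library 2 edgeR called 5 of the 7 and 2257 genes in all, and without labelled-negative library 3 it called 4 of the 7 and 4835 genes in all, each time with 1 library assumed to vary like the other group. Without labelled-positive library 2 it called 0 of the 7 and 491 genes in all, and without labelled-positive library 3 it called 0 of the 7 and 484 genes in all. Because Ly6a runs against the labels, these directions hold for the labels only.

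Among the receptors, Pdgfra had 322.6 and 332.9 CPM in the libraries labelled Sca1-negative, against 235.3 and 276.9 CPM in those labelled Sca1-positive (log2 fold change 0.39, SE 0.19, edgeR adjusted p = 0.340). Pdgfrb had 41.6 and 75.5 CPM in the libraries labelled Sca1-negative, against 108.3 and 123.7 CPM in those labelled Sca1-positive. Its log2 fold change was -0.96 (SE 0.29), with an adjusted p of 0.138 by edgeR and 0.0185 by DESeq2. Pdgfrl had 208.0 and 278.7 CPM in the libraries labelled Sca1-negative, against 437.4 and 470.4 CPM in those labelled Sca1-positive. Its log2 fold change was -0.87 (SE 0.21), with an adjusted p of 0.0758 by edgeR and 0.00546 by DESeq2. All 3 receptor genes lay apart between the label groups, as did 49.8% of all genes, and edgeR called none of the 3.

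Among the ligands, Pdgfc had 10.95 and 13.6 CPM in the libraries labelled Sca1-negative, against 25.4 and 22.4 CPM in those labelled Sca1-positive. Its log2 fold change was -0.93 (SE 0.21), with an adjusted p of 0.0648 by edgeR and 0.0330 by DESeq2. Pdgfa had 29.1 and 23.8 CPM in the libraries labelled Sca1-negative, against 47.7 and 36.9 CPM in those labelled Sca1-positive (-0.64, SE 0.22, edgeR adjusted p = 0.173). Pdgfd had 13.2 and 9.25 CPM in the libraries labelled Sca1-negative, against 11.8 and 10.8 CPM in those labelled Sca1-positive, and the groups overlapped. Pdgfb had 24 and 0 counts in the libraries labelled Sca1-negative, against 36 and 11 counts in those labelled Sca1-positive, so its fold change rests on few counts.

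In the authors' TPM, ligand RNA summed to 47.8 and 43.1 in the libraries labelled Sca1-negative, against 78.5 and 66.5 in those labelled Sca1-positive. Pdgfa was 70.6% to 74.0% of it in the libraries labelled Sca1-negative and 69.9% to 72.6% in those labelled Sca1-positive. The ratio of Pdgfrb to Pdgfra TPM was 0.174 and 0.288 in the libraries labelled Sca1-negative, against 0.570 and 0.550 in those labelled Sca1-positive. Pdgfrl was the highest of the 7 genes in all 4 libraries.

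Marker lists moved with the labels. None of the 11 mural genes was called, and their sum was 269 to 341 CPM in the libraries labelled Sca1-negative, against 413 to 422 CPM in those labelled Sca1-positive. The cartilage list was lower for 8 of 8 genes, at 635 to 748 CPM summed in the libraries labelled Sca1-negative, against 6073 to 7245 CPM in those labelled Sca1-positive. The bone list was lower for 7 of 8 genes, at 99.1 to 149 CPM in the libraries labelled Sca1-negative, against 5716 to 6142 CPM in those labelled Sca1-positive. The fibroblast progenitor list, which includes Ly6a, was higher for 7 of 8 genes, at 6299 to 7111 CPM in the libraries labelled Sca1-negative, against 1328 to 1601 CPM in those labelled Sca1-positive. Their part in the PDGF values was not tested. Of the 94 pathway genes tested, 5 were higher and 3 lower, against 1.63% and 2.79% of all genes. Itgb3, an integrin subunit gene, had a log2 fold change of 2.01 (SE 0.19, edgeR adjusted p = 0.00498), and Fyn (1.09), Wwp1 (0.96), Cxcl1 (1.31) and Vegfd (1.25) were higher too. The sphingosine phosphate receptor gene S1pr1 (-1.67), Nrp2 (-1.50) and the phosphatase gene Dusp6 (-1.37) were lower.

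In the knockout table none of the 7 genes was called. Pdgfra was higher in every knockout library than in any control, and Pdgfrl and Pdgfa were lower in every knockout library than in any control. Non-overlap held for 3 of the 7 genes and for 27.9% of all genes. edgeR called 5 of 13590 genes (0.0368%), all lower in the knockout, and 0 of them with the replicate number as a block. At an unadjusted p under 0.05 stood 4 of the 7, against 21.8% of all genes. DESeq2 called 999 genes and none of the 7, and no PDGF gene had an adjusted p under 0.05 in the authors' deposited table. Without knockout library 1 edgeR called 3003 genes, Pdgfrb and Pdgfd among them, and without control library 1 it called 306 and none of the 7. The values without control library 1 were 0.65 for Pdgfra, -1.06 for Pdgfrb, -1.12 for Pdgfrl and -0.72 for Pdgfa on the log2 scale. Against control library 1 alone, the control whose Ly6a level was nearest to that of the knockouts, they were 0.49 for Pdgfra, -0.70 for Pdgfrb, -0.35 for Pdgfrl and -0.22 for Pdgfa, and none was called.

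**Figure D3:**
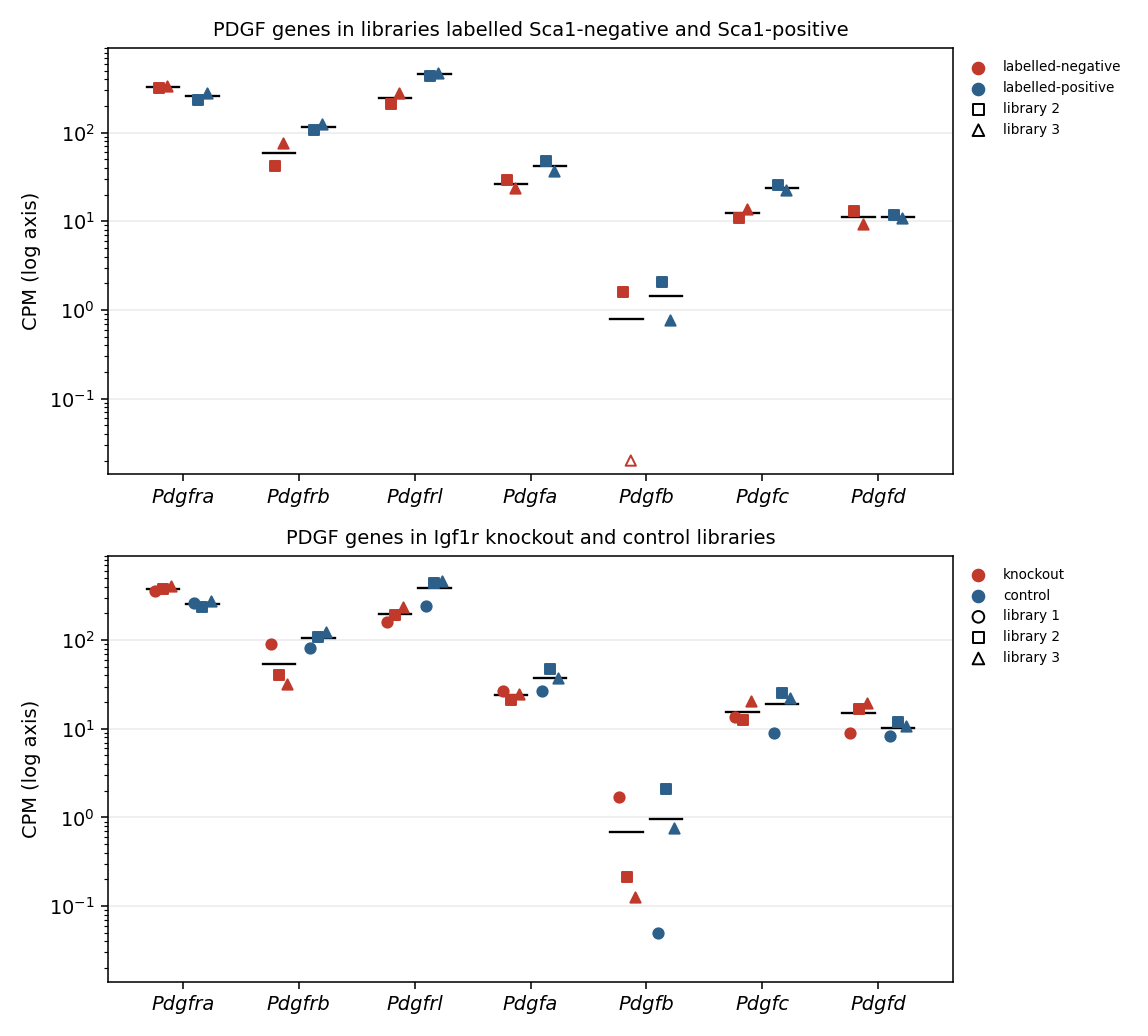
CPM of each PDGF gene in the libraries of the Sca1 table (labelled negative left of labelled positive) and of the knockout table (knockout left of control), on a log axis, with group means as black lines and a count of 0 drawn as an open symbol at the bottom. The Pdgfra points of all 3 knockout libraries, at 357 to 407 CPM, lie above those of all 3 controls, at 235 to 277 CPM.

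Pdgfra had 357.3, 373.7 and 406.7 CPM in knockout libraries, against 259.5, 235.4 and 277.0 CPM in controls. The log2 fold change was 0.59 (SE 0.23, edgeR adjusted p = 0.2002). Pdgfrb had 89.5, 40.8 and 31.8 CPM in knockout libraries, against 82.2, 108.3 and 123.8 CPM in controls. Knockout library 1 lay among the controls. The log2 fold change was -0.95 (SE 0.37, edgeR adjusted p = 0.202), and without knockout library 1 it was -1.45 with an adjusted p of 0.0228. Pdgfrl had 158.4, 191 and 234.8 CPM in knockout libraries, against 240.1, 437.6 and 470.7 CPM in controls (-0.92, SE 0.31, edgeR adjusted p = 0.184). The highest knockout library and control library 1 lay close together.

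Among the ligands, Pdgfa had 27.0, 21.1 and 24.6 CPM in knockout libraries, against 27.0, 47.8 and 37.0 CPM in controls (-0.58, SE 0.25, edgeR adjusted p = 0.225), and knockout library 1 was all but level with control library 1. Pdgfd had 9.06, 16.8 and 19.5 CPM in knockout libraries, against 8.29, 11.8 and 10.8 CPM in controls (0.61, SE 0.35, edgeR adjusted p = 0.303). Without knockout library 1 the Pdgfd value was 0.91 with an edgeR adjusted p of 0.0392. Pdgfc had 13.6, 12.4 and 20.6 CPM in knockout libraries, against 9.03, 25.4 and 22.4 CPM in controls, and the groups overlapped. Pdgfb had 38, 4 and 3 counts in knockout libraries, against 1, 36 and 11 counts in controls, with 1 library well above the others in the knockout group.

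The ratio of Pdgfrb to Pdgfra, in TPM computed from the counts, was 0.458, 0.1998 and 0.143 in knockout libraries, against 0.579, 0.842 and 0.818 in controls; control libraries 2 and 3 are those with 0.570 and 0.550 in the authors' TPM. Computed ligand TPM summed to 41.2, 39.7 and 49.4 in knockout libraries, against 37.3, 70.1 and 58.6 in controls, with control library 1 below all 3 knockouts. None of the 94 pathway genes tested was called. The 2 most abundant genes of each list included Cd44, a receptor partner, with 469 ± 91.4 CPM in knockout libraries and 220 ± 19.6 CPM in controls (log2 fold change 1.12, edgeR adjusted p = 0.176). Fos had 2521 ± 1162 CPM in knockout libraries and 4766 ± 844 CPM in controls (-0.92, edgeR adjusted p = 0.2004; n = 3 each, SD). Cd44 and Fos lay apart between the groups, as did Sparc and Egr1, which were lower, and Thbs1 and Jak1, which were higher in knockouts. The groups overlapped for Lrp1 (log2 fold change -0.72), Stat3 (-0.42), Socs3 (-0.39) and Errfi1 (0.27). They also overlapped for Flt3 (1.49), Flt1 (0.52), Csf1 (0.045) and Pgf (0.34). The cartilage list summed to 430 to 775 CPM in knockout libraries. It was at 915, 6075 and 7249 CPM in control libraries 1, 2 and 3. The fibroblast progenitor list summed to 6066 to 7529 CPM in knockout libraries. It was at 4557, 1329 and 1602 CPM in control libraries 1, 2 and 3. In both lists control library 1 lay nearest to the knockouts, and none of the 8 genes of either was called. The erythroid list summed to 157 to 247 CPM in knockout libraries and 1243 to 1664 CPM in controls, with 4 of 7 genes called lower. In each of these lists the knockout and control ranges lay apart. The bone sums overlapped, at 132 to 284 CPM in knockout libraries and 86.7, 6144 and 5719 CPM in control libraries 1, 2 and 3. The mural sums overlapped too, at 248 to 344 CPM in knockout libraries and 337 to 423 CPM in controls. The part of these lists in the PDGF values was not tested.

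**Figure D4:**
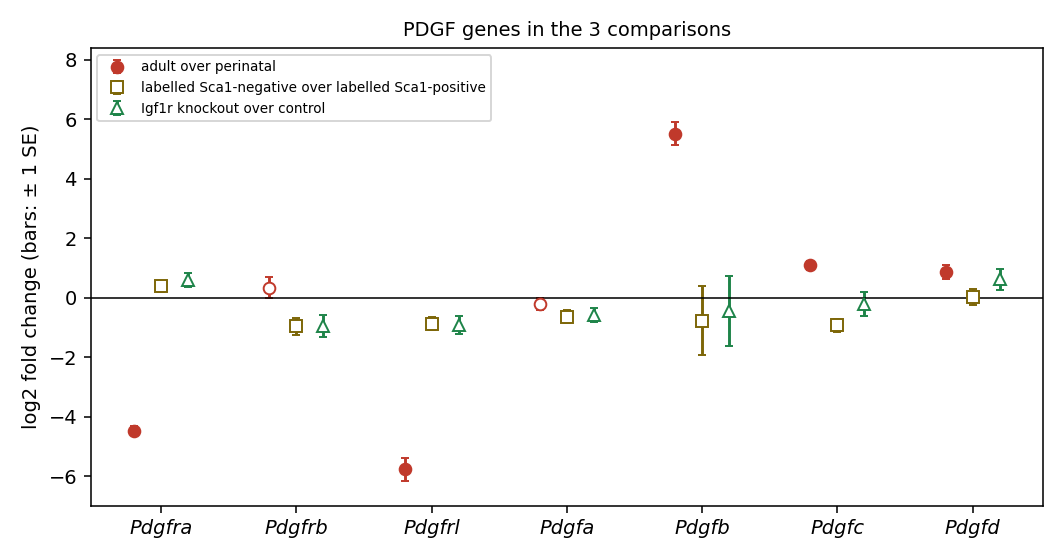
Log2 fold change of each PDGF gene in the 3 comparisons from edgeR with TMM scaling (adult over perinatal, labelled Sca1-negative over labelled Sca1-positive, knockout over control), with bars of 1 SE and filled points for called genes. The 5 filled points are all in the age comparison; the comparisons share libraries 2 and 3 of the PDGFRa+Sca1+ wild-type group.

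Across the groups, each read in its own table, Pdgfra was highest in knockout libraries (357.3 to 406.7 CPM), then in the libraries labelled Sca1-negative (322.6 to 332.9 CPM), then in PDGFRa+Sca1+ wild-type libraries (235.2 to 279.0 CPM), and lowest in adult libraries (13.4 to 15.2 CPM). The tables were normalised separately, and knockout libraries were not tested against those labelled Sca1-negative. Of the differences from PDGFRa+Sca1+ wild-type libraries, only that of the adult libraries was called. Pdgfb kept to at most 2.08 CPM in every library other than the adult ones. The gene coordinates on mm10, from GENCODE M21, put Pdgfra (75152292 to 75198215, plus strand) and Pdgfa (138976014 to 138997370, minus strand) on chromosome 5, Pdgfc on chromosome 3 (81036416 to 81214040, plus strand), Pdgfrl on chromosome 8 (40926212 to 40990785, plus strand), Pdgfd on chromosome 9 (6168584 to 6378850, plus strand) and Pdgfb on chromosome 15 (79995874 to 80014977, minus strand).

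By the smallest root mean square distance between centred log2 CPM profiles over the 6 age libraries, the genes most like Pdgfra among 4993 above a floor of 5 on mean log2 CPM, were Nfib (0.084), Plpp3 (0.12), Pde4b (0.14), Hmgn2 (0.17) and Fkbp11 (0.18). Those most like Pdgfrb were Agrn (0.070), Relb (0.12), Ssbp4 (0.14), Rnf187 (0.15) and Wbp11 (0.16). Over the 6 knockout libraries and 4534 such genes, Pdgfra was most like Crybg3 (0.072), Otud7b (0.073), AW551984 (0.082), Cgnl1 (0.082) and Chp1 (0.083). Pdgfrl was most like Fdps (0.15), Cgref1 (0.17), Sqle (0.19), Cyp51 (0.24) and Vcam1 (0.25). These distances describe the libraries, which fall into 2 groups in each table.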

How the data were processed

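PolyA RNA of 11 sorted samples in 4 groups was used. The 3 deposited tables hold raw counts per gene; the authors' own TPM stands in the age and Sca1 tables, per the file headers. Columns headed TPM in the knockout table held log2 values as deposited and were not used. The authors' log2 fold changes and adjusted p-values are from their own comparisons, per the file headers, with positive values for the perinatal, labelled Sca1-positive and knockout sides. Trimmomatic 0.32, DESeq2 and mm10 are named in the submitters' processing notes; the sources used here do not give the aligner, counter or strand setting.

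Each table was fitted by itself with edgeR 4.0.16 (limma 3.58.1, R 4.3.3): filterByExpr, TMM factors, robust glmQLFit, glmQLFTest, group as the only term. DESeq2 1.42.0 was an alternative. The self-test on simulated data was run for each fit. TPM was also computed from counts and GENCODE M21 exonic lengths. Start windows are from RefSeq, GRCm38.p6. Profile distances used log2(CPM + 0.5). Named genes were the 7 PDGF genes; from each pathway list the up to 3 called genes with the smallest adjusted p in each direction, or the 2 most abundant where none was called; Ly6a, Igf1r and Itgav; and the 5 nearest profiles. Members and lists were chosen with earlier results of these data known. A fit with the replicate number as a block was run for every table as an alternative. In the knockout table the deviations of same-numbered libraries correlated at 0.337, 0.119 and 0.133 over 8378 genes. The column the labels tie to control library 1 carries the number 5 in its own name, and knockout library 3 with control library 2, which do not share a number, correlated at 0.411, so this pairing is uncertain.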

Additional observations from a re-analysis of the deposited data

How the results depend on the processing

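Pdgfra, Pdgfrl, Pdgfb and Pdgfc kept their age direction and call under all 13 alternatives, with log2 fold changes of -4.60 to -4.20, -6.01 to -5.16, 5.26 to 6.37 and 0.97 to 1.39. For age, Pdgfa ran from -0.37 (without perinatal replicate 1) to 0.0032 across left-out libraries, turning to 0.0032 without perinatal replicate 2, 0.26 against perinatal library 1 alone and 0.063 with library totals without TMM factors, which moved the share of higher calls to 55.5% (48.5% with TMM). In the Sca1 table DESeq2 called 1007 genes, 3 of them PDGF genes, and the replicate block 1369 genes and the same number of PDGF genes, 3 (Pdgfrb at -1.01, Pdgfrl at -0.88 and Pdgfc at -0.93, edgeR adjusted p = 0.00643, 0.0124 and 0.0206); the 2 shared numbers there give no check of pairing beyond a correlation of 0.456. Leaving out a library, which leaves 1 library assumed to vary like the other group, gave 484 to 4835 called genes and 0 to 5 called PDGF genes. There Pdgfd turned to -0.0092 with upper quartile factors, -0.28 without labelled-negative replicate 2, -0.014 without labelled-positive replicate 3 and -0.0081 with library totals, and it ran up to 0.29 without labelled-negative replicate 3. Pdgfb was -7.46 without labelled-negative replicate 2, where the library left has 0 counts, so that this value is no bound, and turned to 0.19 without labelled-negative replicate 3 and 0.10 without labelled-positive replicate 2. In the knockout table DESeq2 called 999 genes, the replicate block 0 (it changed no PDGF call), and control library 1 alone 0; leaving out a library gave 0 to 3003 genes and 0 to 2 PDGF genes. Pdgfb ran from -2.36 without knockout replicate 1 and turned to 0.015 without knockout replicate 3, 0.78 without control replicate 2 and 3.53 against control library 1 alone, and Pdgfc ran from -0.54 without knockout replicate 3 and turned to 0.019 without control replicate 2 and 0.73 against control library 1 alone. In the age table same-numbered libraries deviated together at -0.087, -0.020 and 0.335, and the replicate block kept the 5 PDGF calls. The cause of these changes was not tested. Outside adult cells Pdgfb had 0 to 38 counts per library, so its fold changes there rest on few counts.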
